A study of Mus musculus with 6 samples.

Results

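Serotonin reaches the hippocampus in axons of the raphe nuclei and acts there through a family of receptors, each encoded by its own gene. All but one kind are G protein-coupled receptors, which signal through Gi/o, Gq or Gs proteins, whereas the receptor that contains the Htr3a subunit is a cation channel opened by serotonin. These receptors are known for their part in anxiety and mood and are targets of anxiolytic and antipsychotic drugs.

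The 10 genes described here, Htr1a, Htr1b, Htr2a, Htr2c, Htr3a, Htr4, Htr5a, Htr5b, Htr6 and Htr7, were taken by gene symbol from a table of 16060 rows. All 10 had a row, and all 10 passed the filter on low values that left 13321 genes for testing. The libraries were made from the hippocampus of adult male C57BL/6 mice, 3 injected with saline (Control) and 3 injected intraperitoneally with methamphetamine (MA) at a dose raised each week, 1 library per mouse. According to the methods, open field and elevated plus maze tests came before the animals were killed, in both groups. The groups are named as the column headers and labels name them, and directions below rest on those names. Nr4a1, Fos and Arc, immediate early genes that neurons switch on with activity, were lower in the libraries labelled MA (log2 fold changes -1.45, -1.61 and -1.80, limma adjusted p of 0.0244, 0.0315 and 0.0181). The study's text gives these genes the opposite direction, so the match of column names to groups is uncertain. If the names were exchanged, every MA minus Control difference below would change its sign and keep its size. The values, RPKM (reads scaled by gene length and by library total), are on a log scale that was read as log2 of RPKM plus 1, so differences of low genes are understated. Because RPKM is per length, levels can be set side by side between genes. The table gives no read totals, the depth is therefore unknown, and no counting interval is given.

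Of the 10 receptor genes, Htr2c and Htr1b were the ones whose libraries did not overlap between the groups. Htr2c, which encodes a Gq-coupled receptor of neurons and of the choroid plexus epithelium, was 2.56 times as high in mean RPKM in the libraries labelled MA. Htr1b, which encodes a Gi/o-coupled receptor found on axon terminals, was 1.59 times as high in the libraries labelled Control. Neither passed an adjusted p-value of 0.05 with limma, which compared the groups over all tested genes. The other 8 genes overlapped between the groups, and 3 of them (Htr2a, Htr6 and Htr7) were spread widest within MA.

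At the adjusted threshold, 0 of the 10 receptor genes were called by limma, against 0.263% of all tested genes. At an unadjusted p-value under 0.05 with limma, 2 of the 10 were called, 1 higher and 1 lower in MA, against 10.4% of all tested genes (4.99% higher and 5.46% lower). The groups did not overlap in 2 of the 10, 1 higher and 1 lower in MA, against 17.5% of all tested genes (7.32% higher and 10.2% lower). In sign, 5 members were higher and 5 lower in MA, while 47.3% of all tested genes were higher and 52.7% lower. The median log2 fold change of the 10 was 0.028, and that of all tested genes was -0.010. With 10 genes, these counts lie near the background, and the description that follows rests on the values of single genes.

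**Figure D1:**
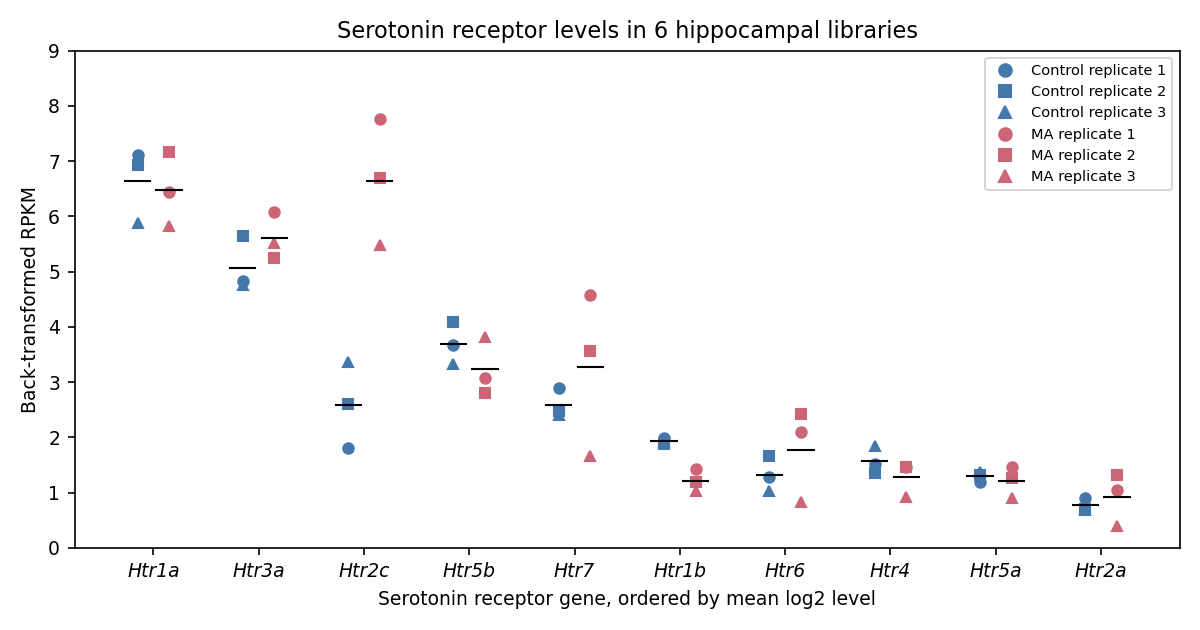
Back-transformed RPKM (vertical axis) of each serotonin receptor gene (horizontal axis, ordered by mean log2 level) in each library, with a bar at the mean of each group of 3. Htr2c lies between 1.81 and 3.36 RPKM in the Control libraries and between 5.48 and 7.76 in the MA libraries, and MA replicate 3 is the lowest point for 7 of the 10 genes.

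One library has to be described before the values. MA replicate 3 had the lowest mean correlation with the others of its group (0.978, against 0.984 to 0.993 for the other 5), listed no gene at 0, and was the lowest of the 6 libraries for 7 of the 10 receptor genes, against 29.8% of all tested genes. Relative to MA replicates 1 and 2 its long genes were low and its short genes high. The median log2 deviation was -0.167 in the 25% of tested genes with the longest exonic sequence and 0.176 in the 25% with the shortest. Its markers of neurons were also low, with a summed RPKM of 1263 for Rbfox3, Snap25, Syt1 and Map2 against 1536 to 1770 in the other 5. The summed markers of astrocytes (245.9 against 303.2 to 348.5) and of microglia (47.45 against 53.21 to 57.45) were lowest in it too. Those of oligodendrocytes (3122 against 2581 to 3003) and of cortex and striatum (107.1 against 63.46 to 77.62) were highest in it. Results that rest on this library are given with and without it.

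Markers of hippocampal subfields were present in every library, among them Prox1 of the dentate gyrus (3.26 to 3.67 on the log2 scale) and Wfs1 of field CA1 (4.81 to 5.39). The defining genes of serotonin neurons were near the bottom of the scale. Tph2, the tryptophan hydroxylase of the brain, lay between 0.24 and 0.68, and Slc6a4, the serotonin transporter, between 0 and 0.07. Of the marker lists examined, that of the choroid plexus epithelium had the largest median log2 fold change, 1.70. All 13 of 13 were higher in each library labelled MA than in each labelled Control, 7 passed the adjusted threshold of limma, and their summed RPKM was 101.8 to 479.4 in Control and 1940 to 5327 in MA. None of the 13 was at 0 in any library. Slc4a5, among those past the adjusted threshold, and Prlr reached 0.5 RPKM in 0 Control and 3 MA libraries. These genes thus passed the filter on low values through the MA libraries alone. Aqp1 and Cldn2 reached it in 1 Control library. Of 10 markers of thalamus and habenula, 9 were higher in MA in the mean, none passed the adjusted threshold of limma, 1 had an unadjusted p-value under 0.05, and the groups overlapped in all 10. In bulk tissue, fewer cells of a type and less RNA per cell cannot be told apart.

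The Gq-coupled receptors were Htr2c and Htr2a. Htr2c (ENSMUSG00000041380) is a gene of the X chromosome's plus strand (GRCm38, 146962513 to 147197277). Its annotated transcripts cover 8 exonic stretches with 9328 bases together, the longest of the 10 genes. Its transcript is edited by ADAR enzymes and is highly abundant in the choroid plexus. The log2 level of Htr2c was 1.49, 1.85 and 2.12 in Control replicates 1, 2 and 3. In MA replicates 1, 2 and 3 it was 3.13, 2.94 and 2.70. The lowest MA library thus lay above the highest Control library. The group means were 1.82 ± 0.32 and 2.92 ± 0.22 (SD, n = 3 each). The log2 fold change was 1.10 with a standard error of 0.185 and a 95% interval from 0.67 to 1.53, and limma gave an unadjusted p of 0.000465 and an adjusted p of 0.0887. The exact two-sided permutation test gave p = 0.1, the smallest that 3 against 3 allows. Without MA replicate 3 the log2 fold change was 1.21 and the limma adjusted p 0.0389. With sample quality weights they were 1.14 and 0.0133, so these alternatives put Htr2c past the threshold. The weight was 0.194 for MA replicate 3 and 0.937 to 2.45 for the other libraries, so both alternatives discount MA replicate 3. In those fits 257 and 586 of all tested genes passed it, against 35 with all libraries. Leaving out each of the 6 libraries in turn gave log2 fold changes from 0.935 to 1.25 and limma adjusted p-values from 0.0389 to 0.327, and the fit with the replicate number as a block gave 0.33.

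The choroid plexus markers stood beside this difference as follows. Ttr, the transthyretin gene of the choroid plexus epithelium, was 5.87, 7.39 and 8.68 on the log2 scale in Control replicates 1, 2 and 3 and 10.8, 11.1 and 12.3 in the MA replicates, and the summed marker RPKM had the same order in the 6 libraries. The other 12 markers, without Ttr, summed to 44.2, 51.7 and 69.1 RPKM in Control and 197, 276 and 294 in MA, again in that order. Among the Control libraries the order of Htr2c was that of the marker sum. Among the MA libraries it was the reverse: MA replicate 3 had the highest marker sum and the lowest Htr2c level. The summed RPKM of the thalamus and habenula markers was 39.5, 33.3 and 47.3 in Control and 70.6, 77.7 and 33.8 in MA, so it was low in MA replicate 3, where Htr2c still exceeded every Control library. Calb2, listed with the interneuron markers, had a log2 fold change of 1.44 (limma adjusted p = 0.203). Of the 13 markers of that list 9 were lower in MA in the mean, and the median log2 fold change of the list was -0.045. The part of the choroid plexus and thalamus genes in the Htr2c result was not tested.

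**Figure D2:**
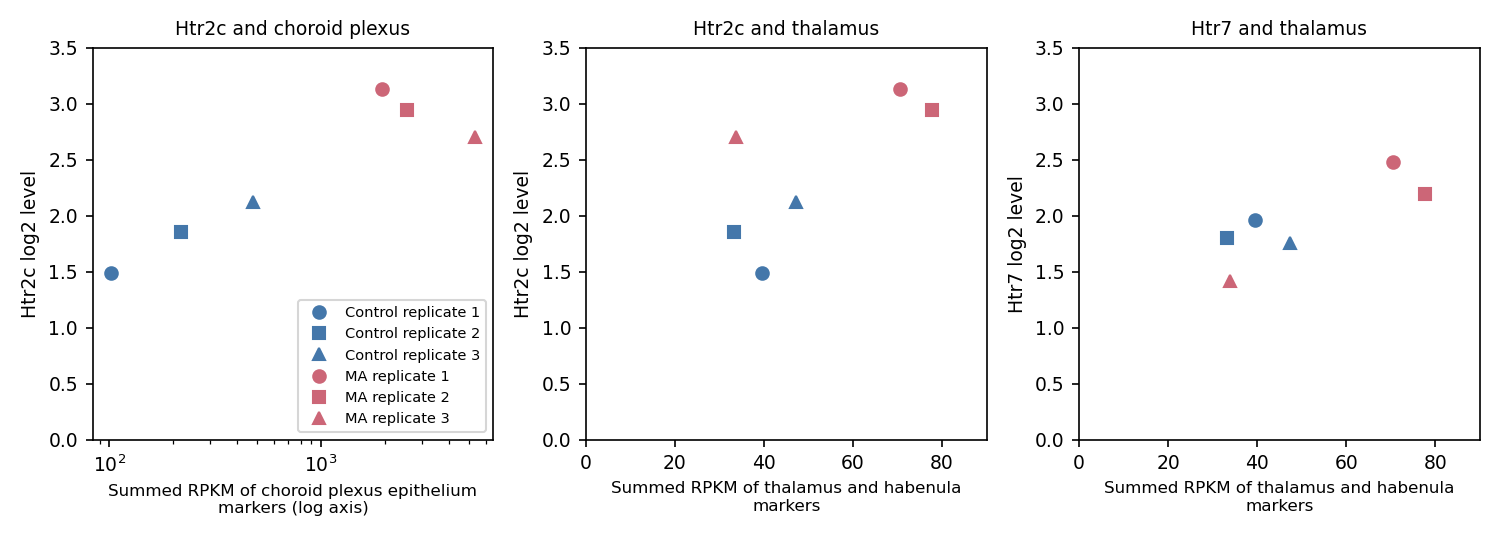
Log2 level of Htr2c against the summed RPKM of choroid plexus markers (left, log axis) and of thalamus and habenula markers (middle), and log2 level of Htr7 against the latter (right), 1 point per library. The MA libraries lie to the right of all Control libraries in the left panel, whereas MA replicate 3 lies among the Control libraries on the thalamus axis, with Htr2c at 2.70 and Htr7 at 1.42.

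Htr2a, the Gq-coupled receptor of cortical pyramidal cells through which psychedelic drugs act, had the lowest mean level of the 10 genes. It lies on chromosome 14 from 74640840 to 74709494. The log2 level of Htr2a was 0.93, 0.78 and 0.76 in Control replicates 1, 2 and 3. In the MA replicates it was 1.03, 1.21 and 0.49. MA replicates 1 and 2 were the highest of the 6 and MA replicate 3 the lowest. The log2 fold change was 0.089 (95% interval from -0.36 to 0.54, limma adjusted p = 0.919). Htr2a met the minimum of 0.5 RPKM in 5 of the 6 libraries and missed it in MA replicate 3.

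The Gi/o-coupled receptors were Htr1a, Htr1b and Htr5a, which lower cyclic AMP or open GIRK potassium channels. Htr1b (ENSMUSG00000049511) lies on chromosome 9 from 81628291 to 81633828 on the minus strand. An antisense gene, D430036J16Rik, which had no row of its own, shares 852 of the 4724 exonic bases of Htr1b. Since no source used here says that counting used strand, reads within those shared bases cannot be told apart. The log2 level of Htr1b was 1.58, 1.53 and 1.55 in Control replicates 1, 2 and 3. It was 1.27, 1.14 and 1.02 in the MA replicates. Each MA library lay below each Control library, and the 3 Control libraries were closer together than for any other member (SD 0.027). The log2 fold change was -0.41 with a standard error of 0.109 and a 95% interval from -0.66 to -0.15, and limma gave an unadjusted p of 0.00657 and an adjusted p of 0.266. The exact two-sided permutation test gave p = 0.1. When each library was left out in turn, its log2 fold change ranged from -0.47 to -0.35 and its limma adjusted p from 0.121 to 0.719. Field CA1, whose pyramidal cells express Htr1b, had 5 markers in the table. Wfs1 and Pou3f1 among them were lower in each MA library (log2 fold changes -0.30 and -0.47, limma adjusted p of 0.413 and 0.344), while the groups overlapped in the other 3 and in the summed RPKM of the list, which was 128.6 to 150.8 in Control and 115.2 to 131.6 in MA. Of all tested genes, 10.2% were lower in MA without overlap. The median log2 fold change was -0.297 for the CA1 markers and -0.139 for 6 dentate gyrus markers, of which 0 were apart between the groups. The part of the CA1 markers in the Htr1b result was not tested.

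The bases just upstream of the annotated starts of Htr2c and Htr1b are shown because these were the receptor genes whose groups did not overlap. RefSeq's table on GRCm38.p6 held a start for 7 of the 10 members. Each sequence has 250 bases, 5′ to 3′ on the gene's strand, and ends at the base before the start. It was searched on both strands for GGGCGG (GC box), TGACGTCA (cAMP response element), TGANTCA (AP-1 site), GCGNGGGCG (Egr site) and TATAAA, and matches are in capitals.
Htr2c, chrX:146962263-146962512, plus strand: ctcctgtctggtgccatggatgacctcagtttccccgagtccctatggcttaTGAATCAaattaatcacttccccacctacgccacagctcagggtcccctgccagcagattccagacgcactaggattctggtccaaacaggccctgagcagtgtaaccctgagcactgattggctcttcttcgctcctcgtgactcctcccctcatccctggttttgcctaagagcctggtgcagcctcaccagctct
Htr1b, chr9:81633833-81634082, minus strand: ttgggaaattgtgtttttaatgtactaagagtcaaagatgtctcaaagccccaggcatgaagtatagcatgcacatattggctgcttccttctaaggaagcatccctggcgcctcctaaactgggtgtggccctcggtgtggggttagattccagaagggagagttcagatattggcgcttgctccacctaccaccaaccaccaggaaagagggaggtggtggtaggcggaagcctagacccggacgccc

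The Htr2c window held 1 match, the AP-1 letters TGANTCA, which occur in 6.75% of the 32851 upstream windows of the same length in that table, chromosome 18 left out. The Htr1b window held none of the 5 motifs. The cAMP response element letters were in 1.55% of all windows and in none of the 8 windows of the members, and the GC box letters were in 32.7% of all windows and in 3 of the 8, those of Htr6, Htr1a and Htr2a. The Egr letters were in 4.7% of all windows and in 1 of the 8, that of Htr7, and TATAAA was in 12.4% of all windows and in 0 of the 8. GC content was 55.6% upstream of Htr2c and 52.4% upstream of Htr1b, and the median of all windows was 52.4%. A match to letters is a description of the sequence only.

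Htr1a, the Gi/o-coupled receptor at which buspirone acts, is encoded by 1 exon on chromosome 13 and had the highest mean level of the 10 genes. It was 2.78 to 3.02 on the log2 scale in Control and 2.77 to 3.03 in MA, so the ranges nearly coincided. The log2 fold change was -0.032 with a 95% interval from -0.30 to 0.23 (limma adjusted p = 0.95), an interval that leaves out a doubling or a halving. Its sign was positive without MA replicate 3, without Control replicate 1 and with sample quality weights. Htr5a, on chromosome 5, was 1.13 to 1.24 in Control and 0.93 to 1.30 in MA (log2 fold change -0.060, 95% interval from -0.36 to 0.24, limma adjusted p = 0.917). Htr5b, on chromosome 1, encodes a receptor that is functional in rodents and has lost its reading frame in humans. It was 2.11 to 2.34 in Control and 2.03, 1.93 and 2.27 in MA replicates 1, 2 and 3, and thus was 1 of the 2 members for which MA replicate 3 was not the lowest MA library. Its log2 fold change was -0.15 (95% interval from -0.44 to 0.14, limma adjusted p = 0.736) and -0.25 without MA replicate 3 (limma adjusted p = 0.229).

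The Gs-coupled receptors Htr4, Htr6 and Htr7 raise cyclic AMP. Htr7 lies on chromosome 19 from 35958734 to 36057507 and encodes a receptor studied for its role in circadian phase and in CA3 excitability. The log2 level of Htr7 was 1.96, 1.80 and 1.76 in Control replicates 1, 2 and 3. It was 2.48, 2.19 and 1.42 in the MA replicates. Htr6, on chromosome 4 from 139061108 to 139075570, encodes a receptor of primary cilia of neurons. Its log2 level was 1.19, 1.41 and 1.02 in Control and 1.63, 1.77 and 0.87 in MA. For both genes MA replicates 1 and 2 were the highest of the 6 libraries and MA replicate 3 the lowest, as for Htr2a. With all libraries the log2 fold changes were 0.19 for Htr7 (95% interval from -0.41 to 0.78, limma adjusted p = 0.857) and 0.22 for Htr6 (from -0.35 to 0.78, limma adjusted p = 0.821). Htr4, whose receptor promotes hippocampal excitability and memory, was 1.23 to 1.51 in Control and 0.94 to 1.30 in MA (log2 fold change -0.18, 95% interval from -0.51 to 0.15, limma adjusted p = 0.723) and -0.059 without MA replicate 3.

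Without MA replicate 2, the log2 fold change of Htr6 was 0.039. Without MA replicate 3, the log2 fold changes of Htr7, Htr6 and Htr2a were 0.49, 0.49 and 0.30, each with the remaining MA libraries above all Control libraries. Their limma adjusted p-values were 0.0908, 0.115 and 0.207. For these genes MA replicates 1 and 2 were the highest libraries, so the separation without MA replicate 3 was fixed in advance. In that fit 5 of the 10 members had an unadjusted p under 0.05 (limma), against 23.3% of all tested genes, 1 passed the adjusted threshold, against 1.93%, and the groups did not overlap in 6, against 42.9%. Relative to the mean of MA replicates 1 and 2, MA replicate 3 was lower by 0.92 for Htr7 and 0.84 for Htr6 on the log2 scale. The exonic sequence of these genes is 3399 and 2341 bases long, below the median length of the tested genes. Htr3a and Htr5b, with 2083 and 1935 bases, were the members for which MA replicate 3 was not the lowest MA library. The summed RPKM of the thalamus and habenula markers was highest in MA replicates 1 and 2 and, in MA replicate 3, lay within the Control range. The markers of neurons, astrocytes and microglia were each lowest in MA replicate 3. Those of oligodendrocytes and of cortex and striatum were highest there. The part of gene length and of any of these marker lists in these values was not tested.

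**Figure D3:**
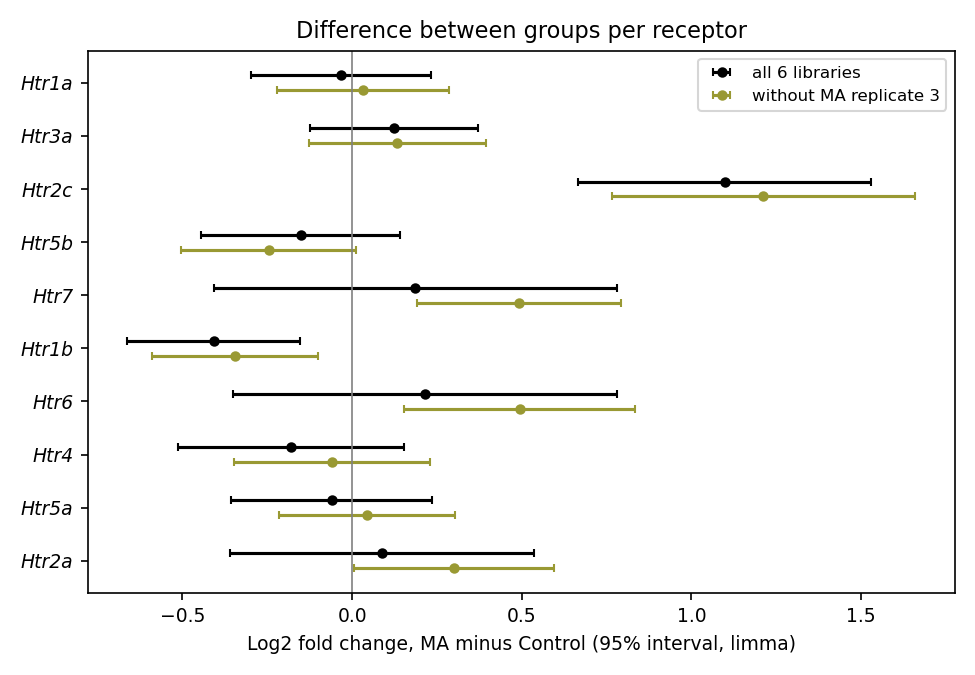
Log2 fold change of each receptor gene, MA minus Control, with its 95% interval from limma, with all 6 libraries (black) and without MA replicate 3 (olive). The intervals of Htr2c (0.67 to 1.53) and Htr1b (-0.66 to -0.15) leave out 0 with all libraries, and those of Htr7, Htr6 and Htr2a leave it out without MA replicate 3. For Htr7, Htr6 and Htr2a, MA replicate 3 was the lowest of the 6 libraries.

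Htr3a, a subunit of the serotonin-gated cation channel, marks a class of inhibitory interneurons and lies on chromosome 9. It was 2.52 to 2.73 on the log2 scale in Control and 2.64 to 2.82 in MA, a log2 fold change of 0.12 (95% interval from -0.12 to 0.37, limma adjusted p = 0.744). Of 13 interneuron markers, 12 overlapped between the groups, among them Vip (3.14 to 3.74 in Control, 3.24 to 3.85 in MA) and Cnr1 (4.47 to 4.54 and 4.18 to 4.78), which mark cells that carry Htr3a. Calb2, found in some interneurons, did not overlap (3.69 to 4.87 in Control and 5.21 to 5.98 in MA).

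Set in order of the mean log2 level over the 6 libraries, Htr1a (2.92) was followed by Htr3a (2.66), Htr2c (2.37), Htr5b (2.15), Htr7 (1.93), Htr1b (1.35), Htr6 (1.32), Htr4 (1.27), Htr5a (1.17) and Htr2a (0.87). Each neighbouring pair overlapped in its range over libraries. Within libraries, Htr1a exceeded Htr3a in 6 of 6 and Htr7 exceeded Htr1b in 6 of 6, while Htr6 exceeded Htr4 in 3 of 6. By group mean, Htr2c ranked number 5 in Control and number 1 in MA, Htr1b number 6 and number 8, and Htr6 number 8 and number 6.

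The summed RPKM of the 10 genes was 27.2, 28.7 and 26.6 in Control replicates 1, 2 and 3 and 35.4, 33.1 and 26.4 in the MA replicates. Htr2c made up 6.67%, 9.11% and 12.6% of the sum in Control and 21.9%, 20.2% and 20.8% in MA. Htr1b made up 7.32%, 6.57% and 7.23% in Control and 4.0%, 3.64% and 3.89% in MA. Both shares were apart between the groups in every library, including MA replicate 3 (exact two-sided permutation test, p = 0.1 for each, the smallest possible). The shares of Htr1a, Htr4 and Htr5a were also apart, each lower in MA, although the levels of these genes overlapped. So were the summed shares of the Gi/o receptors (lower in MA) and of the Gq receptors (higher). Htr2c and Htr1b had been singled out because their levels did not overlap in the same libraries, so the test of their shares adds no separate evidence. Without Htr2c the sum of the other 9 genes was 24.9 ± 1.51 RPKM in Control and 25.0 ± 3.61 in MA (SD, n = 3 each). The 3 Gs-coupled receptors made up 19.2% to 20.9% in Control and 22.9%, 22.4% and 12.9% in MA replicates 1, 2 and 3, so that their share overlapped between the groups with MA replicate 3 and was above every Control library without it. Since the shares add up to the whole, a higher share of 1 gene lowers the others.

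**Figure D4:**
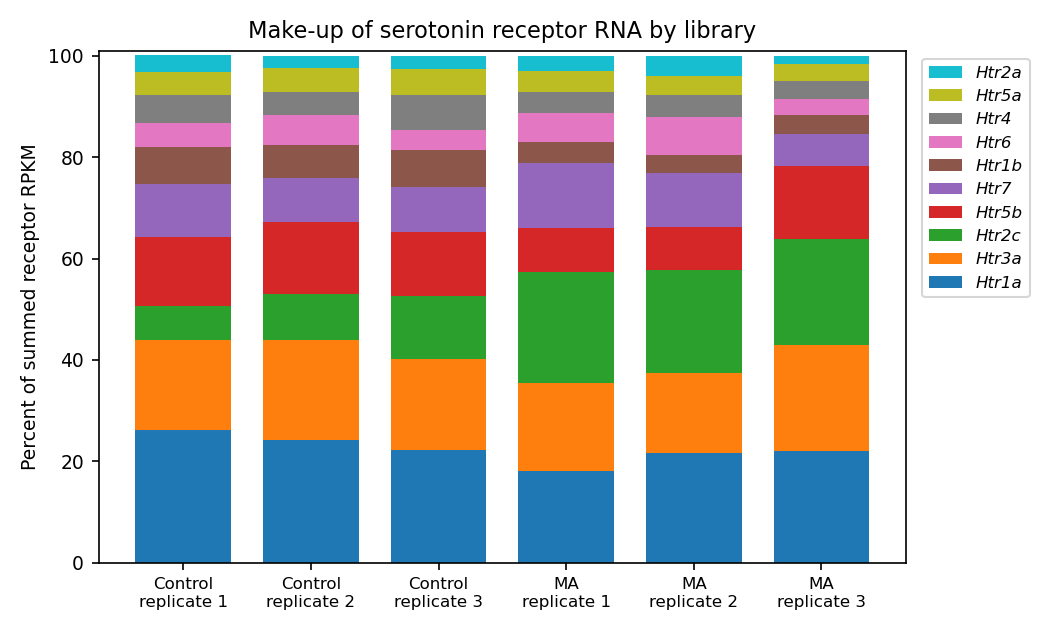
Share of each receptor gene in the summed RPKM of the 10 genes (vertical axis, percent) in each library, stacked in order of mean log2 level. The Htr2c segment is 6.67% to 12.6% in Control and 20.2% to 21.9% in MA.

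Genes that make, move or transmit serotonin signals were taken from 5 lists with 77 symbols, of which 75 had a row and 64 were tested. With limma 0 of the 64 passed the adjusted threshold, and 10 had an unadjusted p under 0.05, 8 higher and 2 lower in MA. This is 15.6% of the 64, against 10.4% of all tested genes. Their median log2 fold change was 0.038, and the lowest adjusted p was 0.238. In the list of synthesis, transport and breakdown, 11 of 20 genes were tested and 5 had an unadjusted p under 0.05. Ddc, the decarboxylase that forms serotonin and dopamine, had a log2 fold change of 0.42 (limma adjusted p = 0.379). Maob, a monoamine oxidase, and Aldh2, the aldehyde dehydrogenase that acts after it, had log2 fold changes of 0.34 each (limma adjusted p of 0.35 and 0.29). Pcbd1, which recycles the cofactor of tryptophan hydroxylase, had 0.28 and Qdpr, with a similar role, -0.29 (limma adjusted p of 0.391 and 0.466). Among genes without such a p, Spr was 5.98 to 6.06 in Control and 6.05 to 6.17 in MA on the log2 scale, Pts was 4.07 to 4.61 and 4.38 to 4.76, and Slc29a4, a low-affinity monoamine transporter, was 4.23 to 4.45 and 4.21 to 4.51.

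Of the Gi/o proteins and GIRK channels, 8 of 9 were tested, and 0 had an unadjusted p under 0.05 with limma. Of the Gq proteins and the enzymes and channels below them, 12 of 13 were tested, likewise with 0. The median log2 fold changes of these lists were -0.037 and -0.0073. Gnao1, the alpha subunit of Go, was 7.51 to 7.55 on the log2 scale in Control and 7.76, 7.76 and 7.20 in MA replicates 1, 2 and 3. Prkcb, a protein kinase C, was 7.81 to 8.09 in Control and 7.56 to 7.88 in MA. All 11 genes of the Gs list were tested and 3 had an unadjusted limma p under 0.05, against 10.4% of all tested genes. Adcy6 and Adcy5, adenylyl cyclases, had log2 fold changes of 0.37 and 0.59, and Adcy2, another cyclase, -0.26 (limma adjusted p of 0.238, 0.37 and 0.413). Gnas, the alpha subunit of Gs, was 9.30 to 9.44 in Control and 9.13 to 9.64 in MA.

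The receptor partners and regulators had 22 tested genes, of which 2 had an unadjusted limma p under 0.05, against 10.4% of all tested genes. S100a10, which binds the Htr1b and Htr4 receptors and brings them to the cell surface, was 4.27 to 4.46 on the log2 scale in Control and 4.62 to 4.80 in MA (log2 fold change 0.33, limma adjusted p = 0.29). Adrbk2, a receptor kinase, had a log2 fold change of 0.35 (limma adjusted p = 0.413). Adar and Adarb1, the enzymes that edit the Htr2c transcript, were 4.0 to 4.24 and 4.43 to 4.76 in Control and 3.89 to 4.42 and 4.28 to 5.01 in MA, with overlapping groups. Editing itself cannot be read from gene-level values.

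**Figure D5:**
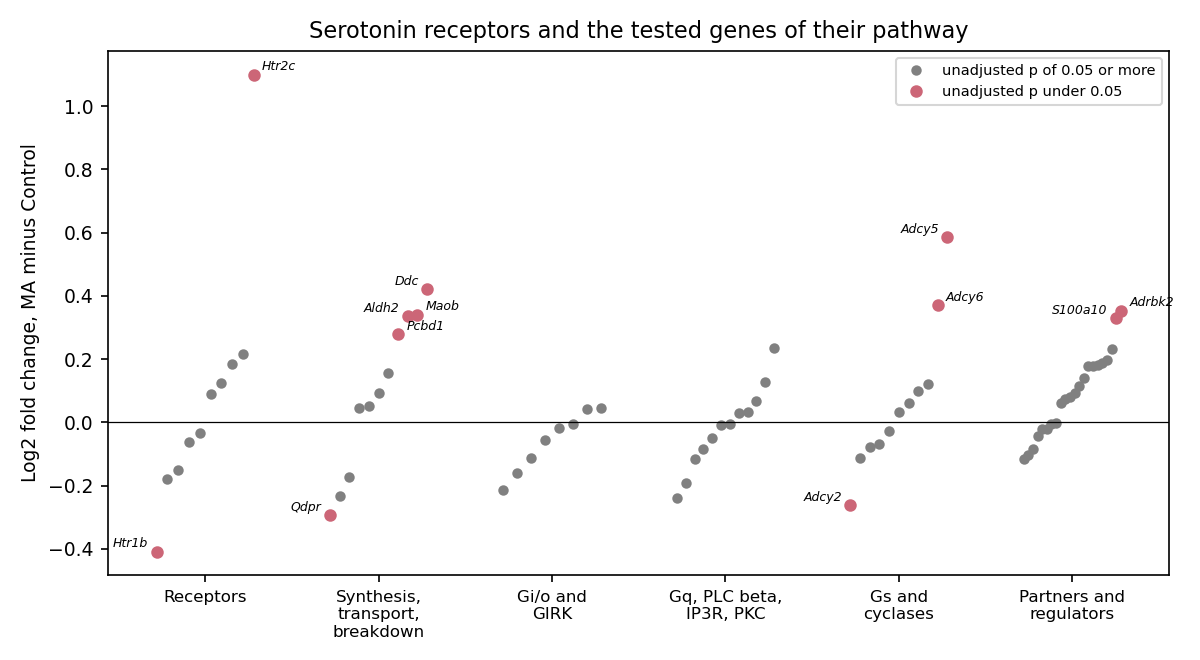
Log2 fold change, MA minus Control, of the 10 receptor genes and of the 64 tested pathway genes by list, with genes at an unadjusted limma p under 0.05 in red and named. Htr2c at 1.10 and Htr1b at -0.41 are the outermost points, and no gene of the Gi/o and Gq lists is in red.

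The genes most like the 3 most abundant receptors across the 6 libraries were listed by Pearson's r, as a description without a test, because with 6 points and 13321 genes high values arise readily. For Htr2c they included Necab2 and Galnt15 (r of 0.995 for both). For Htr3a they were Phykpl, Tfr2 and Ring1 (0.991, 0.989 and 0.989), and for Htr1a Armc10, Hs3st1 and Cdc5l (0.977, 0.976 and 0.973).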

How the data were processed

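Hippocampal RNA was measured in 3 Control and 3 MA libraries, read as 1 library per mouse. According to the methods, the authors used Hisat2 for alignment and featureCounts for counting, and computed FPKM; the submitters' processing notes name Bowtie 0.12.2, mm8 and mm9, so the build is uncertain. The authors deposited a table named as RPKM whose values were read as log2 of RPKM plus 1, from their range and their lowest value of 0; they share 1 maximum, 12.298, so a normalization between libraries had been applied. Neither step is described. The design assumed log2 values.

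Genes with at least 0.5 RPKM in at least 3 libraries (13321) were tested with limma 3.58.1 in R 4.3.3 (lmFit, eBayes with trend, no covariate, Benjamini-Hochberg over all tested genes). The test was checked on simulated data: in 10 tables with a log2 difference of 1 put into 200 of 13321 genes, the median recovery was 77.0% and the median share of false calls 4.6%. The simulated noise was independent between genes and had the same spread in all libraries. The check therefore does not cover a deviating library such as MA replicate 3. Alternatives were pseudocounts of 0.1 and 0.01, other filters and scalings, eBayes without trend, sample quality weights, a replicate block and leaving out each library. Named genes were all 10 members, pathway genes with an unadjusted p under 0.05 or the highest levels of their list, marker genes, Adar and Adarb1 (chosen after their values were seen), and the 3 genes most like each of the 3 most abundant members, 1 of which is not reported here. Members and lists were chosen with earlier results of these data known. No source says whether mice with the same number were paired. Positions are those of GENCODE M21 on GRCm38, for location only; Htr4's is left out.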

Additional observations from a re-analysis of the deposited data

How the results depend on the processing

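The deposited values hold no read totals, so what depth limits cannot be given. Genes called at an adjusted p under 0.05 (limma) numbered 35, and 3 with no filter, 20 with a minimum mean of 5, 586 with sample quality weights, 15 with the replicate block and 0 to 257 with each library left out, the highest without MA replicate 3. Receptor genes called numbered 0, and 1 (Htr2c) with sample quality weights; each library left out gave 0 to 1. Those with an unadjusted limma p under 0.05 numbered 2 (against 10.4% of all tested genes) and 6 with sample quality weights (against 26.3%). They numbered 0 with a minimum mean of 5, which kept only Htr1a and Htr3a, so the other 8 have no value there. Each library left out gave 2 to 5, against 6.22% to 23.3%. Receptor genes whose groups did not overlap numbered 2, against 17.5% of all tested genes. With each library left out, an alternative added after seeing the data, they numbered 2 to 6, against 23.6% to 42.9%. Pathway genes with an unadjusted limma p under 0.05 numbered 10 of 64, against 10.4% of all tested genes. They numbered 23 with sample quality weights (against 26.3%) and 6 with the replicate block (against 6.32%). With each library left out they numbered 5 to 24, against 6.22% to 23.3%.

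The log2 fold change of Htr2c was 1.14 with sample quality weights, past the adjusted threshold, and 0.935 to 1.25 with each library left out, past it without MA replicate 3. That of Htr1a was 0.044 with sample quality weights and -0.11 to 0.032 with each library left out, Htr5a -0.14 to 0.043, Htr2a -0.061 to 0.30, Htr7 -0.040 to 0.49, Htr6 0.039 to 0.49, Htr4 -0.24 to -0.059, Htr5b -0.25 to -0.078 and Htr3a 0.073 to 0.19. Single values of opposite sign were Htr1a at 0.013 without Control replicate 1 and 0.032 without MA replicate 3, Htr5a at 0.043 without MA replicate 3, Htr2a at -0.061 without MA replicate 2 and Htr7 at -0.040 without MA replicate 1. The cause was not tested. With the replicate block the limma adjusted p was 0.33 for Htr2c and 0.693 for Htr1b, and no receptor gene was called. Deviations of same-numbered libraries correlated at -0.197, -0.242 and -0.337, so the numbers were not taken as pairs. Of the 10 receptor genes, 4 kept their place in the order of levels in Control replicate 1 alone, and 2 in MA replicate 1 and 2 in MA replicate 2 alone.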

Other observations

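The table also held Htr1d, Htr1f and Htr2b, which fell under the filter and were not tested. Htr1f, a Gi/o-coupled receptor gene, was 0.48, 0.53 and 0.57 on the log2 scale in Control replicates 1, 2 and 3 and 0.40, 0.25 and 0.25 in the MA replicates, so the groups did not overlap (exact two-sided permutation test, p = 0.1, the smallest possible). Htr2b lay between 0.01 and 0.14 in all libraries, and Htr1d reached 0.60 in Control replicate 3 and at most 0.14 in the other 5.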
